A study of Mus musculus with 46 samples.

Results

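The genes described here are 9 that encode ion channels and receptors of insulin secretion: Abcc8, Kcnj11, Cacna1c, Cacna1d, Trpm5, Trpm2, Glp1r, Gipr and Ffar1. They were taken by gene symbol from 55487 genes counted in each of 46 mouse RNA libraries, and their counts were followed in the 33 libraries made from pancreatic islets. Each of the 9 symbols matched 1 gene, and all 9 passed the filter on low counts in every fit. In the first islet experiment, libraries were labelled Tfam control (5 female, 3 male) or Tfam KO (4 female, 2 male). Tfam encodes a factor that packages mitochondrial DNA and takes part in its transcription. In the second, the genotype was labelled Clec control or Clec KO and the sample names spell out Clec16a, a regulator of mitophagy, on a diet given as RFD (4 control, 4 KO) or HFD (6 control, 5 KO), and the sex of these mice is not in the labels. The 13 liver libraries, used here for levels alone, were labelled control (6), Mfn DKO (4) or Tfam KO (3), with AAV in their sample names. The diet names are not written out in the labels, and the promoter or cell type of the gene deletions, the age and the strain are not given in the sources used here. All islets were cultured overnight before RNA was isolated. Titles number the libraries of a group as biological replicates without naming animals, so p-values measure the spread between these libraries.

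In a beta cell, a rise in ATP closes the ATP-sensitive potassium (KATP) channel, the membrane depolarises, voltage-gated calcium channels open and calcium triggers the release of insulin granules. The KATP channel is built from the pore Kir6.2, encoded by Kcnj11, and the sulfonylurea receptor SUR1, encoded by Abcc8. Incretin hormones and fatty acids amplify the release through G-protein-coupled receptors, and cation channels of the TRPM family add depolarising current.

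Total counts ran from 55223041 to 83342809 in the Tfam libraries and from 16235173 to 55810879 in the Clec16a libraries. Values below are CPM, the library's read count of a gene scaled to a fixed library total, unless TPM is named. Library sizes were adjusted by TMM in islets and were raw totals in liver. TPM is scaled for gene length as well and was used to compare levels between genes. Tfam ran from 16.0 to 18.9 CPM in the 6 libraries labelled Tfam KO and from 37.8 to 44.7 CPM in the 8 controls. The Clec16a transcript did not fall with the Clec16a KO label, at 27.4 ± 3.0 CPM (SD, n = 9) against 25.7 ± 3.63 (SD, n = 10) in their controls (95% interval of the log2 difference -0.07 to 0.27), so its level does not check those labels. A single library stood apart from its label: in Clec16a KO HFD replicate 4, all 9 genes lay within the range of the 10 Clec16a controls, whereas in each of the other 8 libraries labelled Clec16a KO only 2 or 3 of the 9 did. Results from the Clec16a experiment are therefore given with and without that library. It was singled out by the values of these same 9 genes. Smaller p-values and separate groups without it thus follow in part from that choice.

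Cell type markers moved with genotype. In Tfam KO islets, 9 of 9 beta cell markers were called lower, their summed level running from 105987 to 141578 CPM against 188616 to 295299 CPM in controls. There, 2 of 4 delta cell and 2 of 5 smooth muscle and pericyte markers were also called lower, 2 of 6 fibroblast and stellate, 1 of 6 duct and 1 of 7 macrophage markers higher, and 1 of 5 Schwann cell and neuron markers in each direction, while no alpha cell, PP cell or endothelial marker was called. In libraries labelled Clec16a KO, 4 of 9 beta cell markers were called lower (139221 to 250943 against 211274 to 349516 CPM), and the same count held without KO HFD replicate 4. In the same libraries, 6 of 6 endothelial markers (395 to 725 against 353 to 462 CPM), 5 of 5 smooth muscle and pericyte markers (100 to 262 against 94.7 to 136 CPM) and 4 of 6 fibroblast and stellate markers (54.3 to 110.2 against 37.2 to 69.7 CPM) were called higher. Further calls were 1 of 5 alpha cell and 1 of 5 duct markers higher, 1 of 7 macrophage markers lower, and 1 higher and 2 lower of 5 Schwann cell and neuron markers. Among all genes, 20.9% were called in the Tfam and 22.4% in the Clec16a experiment. The KO library with 395 CPM of endothelial markers was KO HFD replicate 4, and the other 8 ran from 613 to 725. Acinar markers were called in neither experiment (0 of 10 in each). No marker of these lists was at 0 in every library of a group. The part of these shifts in the results below was not tested. In such bulk samples, fewer cells of a type and less RNA per cell cannot be told apart.

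In control islets the 9 transcripts covered a wide range of levels per length. In the Clec16a controls, deposited TPM was highest for Abcc8, at 411 ± 46.1 (SD, n = 10). Below it came Glp1r at 330.0 ± 45.8, Gipr at 195 ± 33.2 and Kcnj11 at 130.3 ± 8.13 TPM. Ffar1 at 88.3 ± 16.3 and Trpm5 at 80.0 ± 17.6 TPM did not differ beyond their spread. Both L-type calcium channel pores were far lower, Cacna1d at 14.9 ± 2.30 and Cacna1c at 4.55 ± 0.945 TPM, and Trpm2 was the lowest of the 9, at 2.53 ± 0.617 TPM. In the Tfam controls the order was led by Glp1r at 309 ± 61.2 and Abcc8 at 277 ± 34.7 TPM (SD, n = 8), neighbours that did not differ beyond their spread. Kcnj11 followed at 131 ± 16.7, Ffar1 at 101 ± 19.5, Gipr at 86.6 ± 17.4 and Trpm5 at 36.0 ± 9.90 TPM. The order again ended with Cacna1d (19.7 ± 4.75), Cacna1c (7.13 ± 1.81) and Trpm2 (2.33 ± 0.345).

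The proximal promoters of 3 of the receptors and channels that were called lower under both knockouts are shown because they differ in base composition while their transcripts moved the same way. RefSeq's table for GRCm38.p6 held a promoter for 6 of the 9 genes, and Abcc8, Kcnj11 and Gipr are not in it. Each window runs from 250 bases before to 50 bases after a transcription start, is written 5′ to 3′ on the gene's own strand, and has its CpG dinucleotides in capitals. The windows are chr7:143094593-143094892 (minus strand) for Trpm5, chr7:30861421-30861720 (minus strand) for Ffar1 and chr17:30901617-30901916 (plus strand) for Glp1r.
Trpm5: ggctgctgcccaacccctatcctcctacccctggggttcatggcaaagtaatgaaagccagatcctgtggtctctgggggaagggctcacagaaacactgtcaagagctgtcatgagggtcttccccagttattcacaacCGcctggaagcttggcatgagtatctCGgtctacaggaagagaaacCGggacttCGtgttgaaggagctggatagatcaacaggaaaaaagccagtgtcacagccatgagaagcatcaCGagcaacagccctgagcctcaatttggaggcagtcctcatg
Ffar1: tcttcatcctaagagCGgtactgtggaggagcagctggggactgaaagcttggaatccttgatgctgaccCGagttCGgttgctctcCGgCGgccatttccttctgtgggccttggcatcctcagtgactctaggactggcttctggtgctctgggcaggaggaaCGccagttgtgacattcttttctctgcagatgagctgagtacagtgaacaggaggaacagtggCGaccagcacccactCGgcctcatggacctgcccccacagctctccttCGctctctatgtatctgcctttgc
Glp1r: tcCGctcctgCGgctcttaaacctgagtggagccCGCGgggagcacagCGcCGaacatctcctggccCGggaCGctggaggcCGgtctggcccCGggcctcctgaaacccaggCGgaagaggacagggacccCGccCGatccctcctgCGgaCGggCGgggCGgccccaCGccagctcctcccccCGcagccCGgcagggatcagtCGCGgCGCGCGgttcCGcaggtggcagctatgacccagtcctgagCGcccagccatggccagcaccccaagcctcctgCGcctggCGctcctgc
The Trpm5 window holds 5 CpG dinucleotides and 53.0% G and C, the Ffar1 window 9 and 56.3%, and the Glp1r window 29 and 73.7%. The median over all 32851 promoters of the table was 7 CpG dinucleotides, and 38%, 54.2% and 87.1% of them held fewer than Trpm5, Ffar1 and Glp1r, in that order. Searched on both strands, TGCTGA, the core of the element bound by MAF factors, was found in the Ffar1 window 188 bases before the start, and 19.5% of all promoters hold it. TGATGNAA, the composite element of ATF4 and C/EBP factors (in 3.97% of promoters), TAATTA, a homeodomain core (5.29%), and TGACGTCA, the cAMP response element (1.79%), were not found in the 3 windows. With 1 hit in the 3 windows, no hits overlap.

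Of the 9 transcripts, 6 were called in Tfam KO islets over both sexes, 4 lower and 2 higher, by edgeR's quasi-likelihood test at a Benjamini-Hochberg adjusted p of 0.05 or less. Among all 19752 genes tested, 20.9% were called, 9.29% lower and 11.6% higher. Among libraries with the Clec16a KO label, over both diets, 6 of 9 were also called, all of them lower, where 22.4% of 17254 genes were called, 10.4% lower and 12.0% higher. Without KO HFD replicate 4 the 6 calls were the same genes, and 14.7% of all genes were called lower. Trpm5, Gipr, Glp1r and Ffar1 were lower under both knockouts, Cacna1c and Trpm2 moved in opposite directions, and Abcc8, Kcnj11 and Cacna1d were called in neither. The median log2 fold change of the 9 was -0.13 in the Tfam experiment and -0.58 in the Clec16a experiment, beside -0.01 and -0.00 over all genes.

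**Figure D1:**
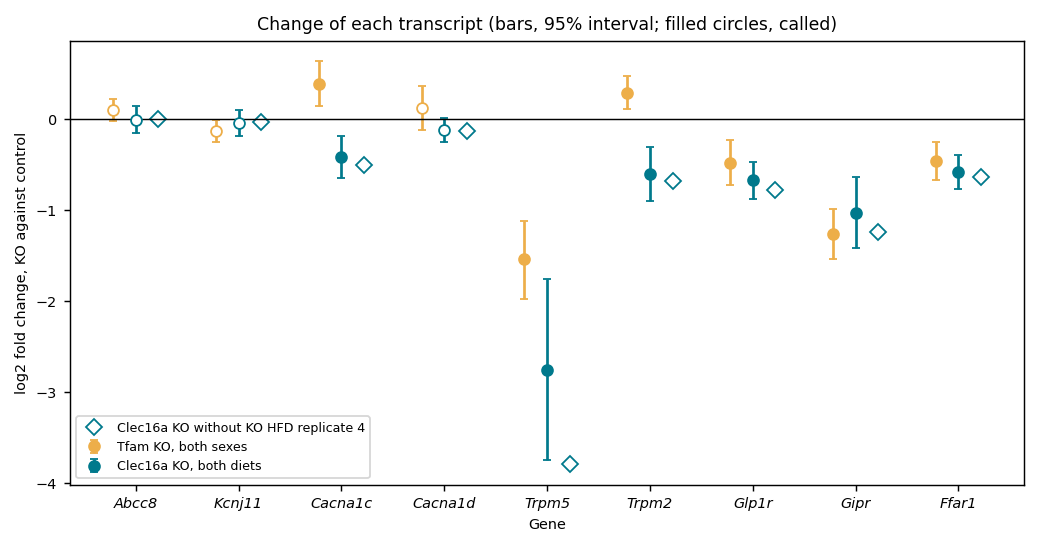
Log2 fold change of each of the 9 transcripts (vertical axis) by gene (horizontal axis), knockout against control, with 95% intervals as bars. Filled circles passed an adjusted p of 0.05, open circles did not, and diamonds give the Clec16a value without KO HFD replicate 4. The circles of Trpm5, Glp1r, Gipr and Ffar1 lie below 0 for both knockouts, those of Cacna1c and Trpm2 on either side of 0.

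Neither subunit of the KATP channel passed edgeR's test under either knockout over both sexes or diets. Abcc8 (ENSMUSG00000040136; chr7:46104523-46180033) and Kcnj11 (ENSMUSG00000096146; chr7:46093953-46100764) are neighbours on the minus strand of chromosome 7, in GRCm38 coordinates of the GENCODE M21 annotation, as are all gene positions here. Abcc8 ran from 1059.8 to 1213 CPM with a median of 1127 in the 6 Tfam KO libraries, and from 976 to 1174 with a median of 1048 in the 8 controls. Kcnj11 ran from 194 to 212 CPM (median 209) and from 201 to 248 CPM (median 227). Knockout and control libraries overlapped for both genes. The difference was 0.10 on the log2 scale for Abcc8 (95% interval -0.02 to 0.22, adjusted p = 0.251) and -0.13 for Kcnj11 (-0.25 to -0.01, adjusted p = 0.118). DESeq2's Wald test called Kcnj11 lower in Tfam KO islets (-0.14, adjusted p = 0.0458). In the Clec16a experiment Abcc8 ran from 1393 to 1873 CPM (median 1545) in the 9 libraries labelled KO and from 1387 to 1701 CPM (median 1635) in the 10 controls. Kcnj11 ran from 205 to 273 CPM (median 218) and from 196 to 272 CPM (median 229.8). The groups covered nearly the same span, and the 95% intervals were -0.15 to 0.14 for Abcc8 and -0.18 to 0.10 for Kcnj11. Within a single diet the intervals were wider, from -0.23 to 0.23 for Abcc8 and from -0.21 to 0.24 for Kcnj11 on RFD, and from -0.21 to 0.19 and from -0.27 to 0.11 on HFD.

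The scaling of the Tfam libraries bears on small changes. When library totals were used without TMM, an alternative added after the data were seen, the median log2 fold change of all genes in Tfam KO islets moved from -0.01 to 0.20, and 91.0% of called genes were higher in place of 55.5%. Under that scaling Abcc8 was called higher (0.30, adjusted p = 0.00159), Kcnj11 changed sign to 0.08, and Glp1r (-0.28, adjusted p = 0.0956) and Ffar1 (-0.25, adjusted p = 0.0698) were no longer called. Deposited TPM moved likewise, with Abcc8 at 386 ± 15.5 TPM in Tfam KO islets (SD, n = 6) against 277 ± 34.7 in controls. The calls of Trpm5, Gipr, Cacna1c and Trpm2 in Tfam KO islets, and all 6 calls of the Clec16a experiment, held under both scalings.

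A ratio of transcripts within a library does not depend on that scaling. The log2 ratio of Abcc8 to Kcnj11 TPM was 1.3 ± 0.06 in Tfam KO islets (SD, n = 6) and 1.08 ± 0.15 in controls (SD, n = 8). The difference of 0.22 gave p = 0.00466 in a two-sided exact permutation test and 0.0210 after adjustment over the 9 ratio tests run. Libraries were permuted without regard to sex. The groups still overlapped, from 1.22 to 1.39 against 0.88 to 1.27, and without Tfam KO female replicate 2 the difference was 0.21 with an adjusted p of 0.0629. Under Clec16a KO the same ratio was 1.65 ± 0.24 against 1.67 ± 0.10 on RFD (n = 4 and 4, exact permutation p = 0.914) and 1.70 ± 0.15 against 1.64 ± 0.15 on HFD (n = 5 and 6, exact permutation p = 0.528). In those libraries the ratio also followed the sequencing lane, with control HFD means of 1.52 in lane 7 and 1.76 in lane 8 (3 libraries each).

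Cacna1c and Cacna1d encode the pores Cav1.2 and Cav1.3 of the L-type calcium channels that admit the calcium for exocytosis (chr6:118587240-119196418 and chr14:30039939-30491455). Cacna1c rose in Tfam KO islets, from 86.5 to 101 CPM with a median of 96.6 in the 6 KO libraries against 47.5 to 101 CPM with a median of 71.1 in the 8 controls. The groups overlapped only at control female replicate 5, at 101 CPM. The change was 0.39 ± 0.12 (log2, SE), or 1.31-fold, with an adjusted p of 0.0284. It was no longer called when any 1 of 6 libraries was left out (control female replicates 1 and 2, KO female replicates 2, 3 and 4, KO male replicate 2), with adjusted p from 0.0527 to 0.0700. In libraries labelled Clec16a KO, Cacna1c fell. It was at 46.7, 33.4, 29.9 and 29.8 CPM on RFD and 36.8, 34.4, 33.4, 49.0 and 29.6 CPM on HFD, against 45.4, 44.4, 59.4 and 60.8 CPM in RFD controls and 33.6 to 50.1 CPM (median 45.4) in the 6 HFD controls. The groups overlapped, and 49.0 CPM was KO HFD replicate 4. Over both diets the change was -0.42 ± 0.11 (SE, adjusted p = 0.00973), and -0.50 ± 0.10 without that library (adjusted p = 7.41e-04). Cacna1c is also the main calcium channel pore of smooth muscle, whose markers were higher in the same libraries (5 of 5 called) and lower for 2 of 5 in Tfam KO islets. Their part in these changes was not tested.

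Cacna1d passed no test. It ran from 140.4 to 154 CPM (median 151) in Tfam KO islets and from 80.9 to 161 CPM (median 148) in controls, and the control at 80.9 CPM, female replicate 4, was also the lowest for Cacna1c. The 95% interval of the change was -0.12 to 0.36 (log2). In the Clec16a experiment it ran from 86.1 to 108 CPM (median 103) in libraries labelled KO and from 95.9 to 122 CPM (median 108) in controls, with an interval of -0.25 to 0.01. The log2 ratio of Cacna1d to Cacna1c was 2.05 ± 0.22 in RFD libraries labelled Clec16a KO against 1.57 ± 0.08 in RFD controls, and these groups did not overlap (1.74 to 2.21 against 1.47 to 1.66). With n = 4 and 4 the exact permutation p of 0.0286 is the smallest the design allows, and the adjusted p was 0.0643. On HFD it was 2.01 ± 0.26 against 1.83 ± 0.20 (n = 5 and 6, exact permutation p = 0.225), and in Tfam KO islets 1.18 ± 0.09 against 1.46 ± 0.27 (n = 6 and 8, exact permutation p = 0.0360, adjusted p = 0.0647).

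Trpm5, a calcium-activated cation channel (chr7:143069153-143094642, minus strand), showed the largest change of the 9 under either knockout. In Tfam KO females it was at 29.7, 81.0, 45.0 and 47.1 CPM, against 110.4, 148, 88.9, 149.9 and 136 CPM in control females. In Tfam KO males it was at 22.8 and 17.4 CPM, against 75.7, 82.9 and 78.5 CPM in control males. Within each sex all KO libraries were below all controls, and how many of all genes were separated in this way is not given here. Across the sexes only KO female replicate 2, at 81.0 CPM, reached the level of control males. Trpm5 fell by 1.54 ± 0.20 on the log2 scale (SE), to 34.3% of control (adjusted p = 4.45e-05).

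In the Clec16a experiment Trpm5 was at 37.0, 12.0, 28.3 and 18.3 CPM in RFD libraries labelled KO and at 14.8, 15.4, 10.7, 191 and 14.5 CPM in HFD libraries labelled KO. Controls had 246, 204, 276 and 304 CPM on RFD and 169.7 to 295 CPM (median 241) on HFD. The value of 191 CPM belongs to KO HFD replicate 4 and lies among the controls, while the other 8 libraries labelled KO, from 10.7 to 37.0 CPM, lie below all 10 controls. With all 9 libraries the change was -2.75 ± 0.48 (log2, SE), or 14.9% of control (adjusted p = 3.11e-04). Without that library it was -3.79 ± 0.21, or 7.21% of control (adjusted p = 5.37e-11). Within lane 7 the difference in mean log2 CPM was -3.06 on RFD (3 KO, 2 control) and -4.09 on HFD (2 KO, 3 control), and within lane 8 it was -4.59 on RFD (1 KO, 2 control) and -2.80 on HFD (3 KO, 3 control).

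**Figure D2:**
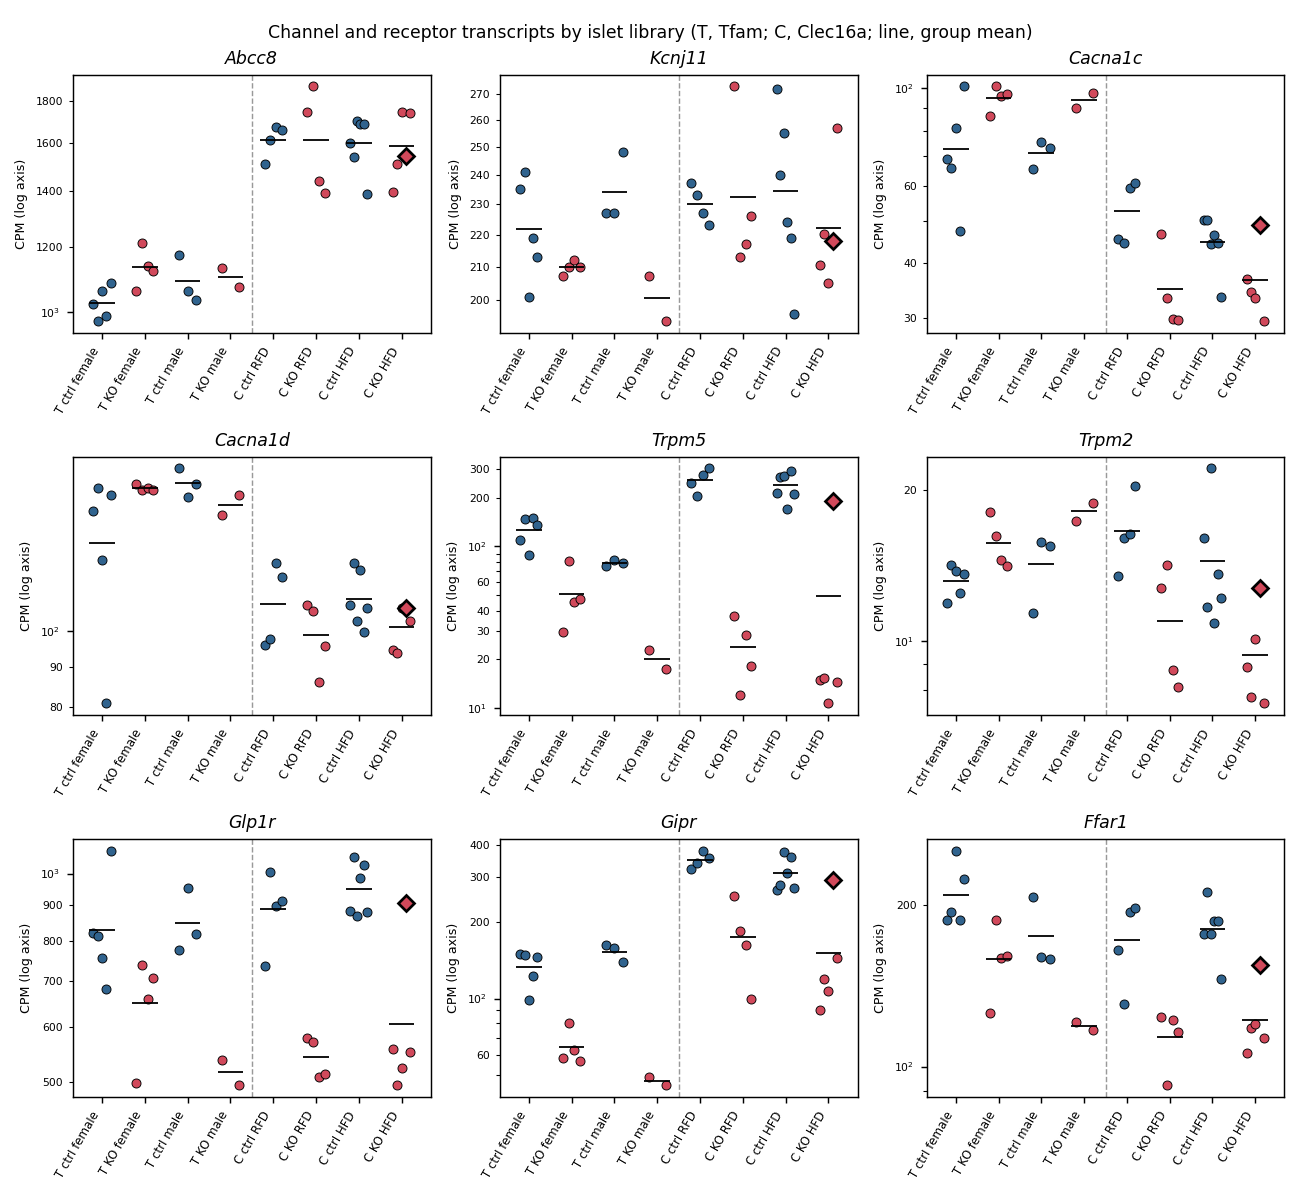
CPM of each of the 9 transcripts (vertical log axes) in every islet library, by group (horizontal axis; T, Tfam experiment; C, Clec16a experiment). Blue points are controls, red points libraries labelled KO, lines group means and the outlined diamond Clec16a KO HFD replicate 4, which lies with the controls for Trpm5 at 191 CPM while the other 8 libraries labelled KO run from 10.7 to 37.0 CPM.

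Trpm2, a calcium-permeable channel gated by ADP-ribose and oxidative stress (chr10:77907722-77970563), rose in Tfam KO islets. It ran from 14.1 to 18.9 CPM (median 16.8) against 11.4 to 15.8 CPM (median 13.7), with overlapping groups. The change was 0.29 ± 0.08 (log2, SE), or 1.22-fold (adjusted p = 0.0244). Leaving out control female replicate 1, KO female replicate 1 or KO male replicate 2 each ended the call, with adjusted p of 0.0554, 0.0667 and 0.0758. In Clec16a islets labelled KO, Trpm2 fell, at 12.8, 14.2, 8.76 and 8.13 CPM on RFD and 8.89, 7.75, 10.1, 12.8 and 7.53 CPM on HFD, against 13.5, 16.1, 16.4 and 20.4 CPM in RFD controls and 10.9 to 22.1 CPM (median 12.9) in HFD controls. The change was -0.60 ± 0.14 (SE, adjusted p = 0.00414), and -0.68 ± 0.14 without KO HFD replicate 4 (adjusted p = 0.0010). Trpm2 is also expressed by phagocytes. Of 7 macrophage markers, 1 was called higher in Tfam KO islets and 1 lower in libraries labelled Clec16a KO. In the latter their sum ran from 107 to 196 CPM (median 126) against 114 to 215 CPM (median 174) in controls. In Tfam KO islets it ran from 123 to 191 CPM (median 150.5) against 110 to 201 CPM (median 121). The part of these cells in the changes of Trpm2 was not tested.

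Gipr, the receptor of the incretin GIP (chr7:19156061-19166127, minus strand), was the only one of the 9 whose Tfam KO and control libraries did not overlap, and 7.49% of all genes had groups that did not overlap. It was at 58.2, 80.3, 63.0 and 56.9 CPM in KO females and 49.4 and 45.6 CPM in KO males, against 149.8, 148, 99.1, 123 and 146 CPM in control females and 162, 158 and 139 CPM in control males. Gipr fell by 1.26 ± 0.13 on the log2 scale (SE), to 41.6% of control (adjusted p = 3.91e-06). With the Clec16a KO label, it was at 253, 185, 162 and 100 CPM on RFD and 89.8, 119.8, 107, 293 and 144 CPM on HFD. Controls had 323, 342, 381 and 356 CPM on RFD and 268 to 378 CPM (median 295) on HFD. The library at 293 CPM was again KO HFD replicate 4, the only KO library inside the range of the controls. The change was -1.03 ± 0.18 (SE, adjusted p = 4.24e-04), and -1.24 ± 0.15, or 42.4% of control, without it (adjusted p = 1.73e-06).

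Glp1r, the receptor of the incretin GLP-1 (chr17:30901817-30940791, plus strand), fell less. In Tfam KO females it was at 499, 739, 660.1 and 707 CPM, against 821, 814, 756, 681 and 1079 CPM in control females. In males it was at 539.5 and 495 CPM, against 775, 954 and 817 CPM. The groups overlapped in females and not in males, where only 2 KO and 3 control libraries were compared. How many of all genes had separate groups in males is not given here. The difference of the effect between the sexes did not pass edgeR's test (adjusted p = 0.887). Over both sexes the change was -0.48 ± 0.11 (log2, SE), or 71.9% of control (adjusted p = 0.00717). In libraries labelled Clec16a KO Glp1r was at 579, 572, 509.8 and 514 CPM on RFD and 559, 495, 525, 906 and 553 CPM on HFD, against 737, 1005, 898 and 912 CPM in RFD controls and 868 to 1058 CPM (median 935) in HFD controls. Apart from the 906 CPM of KO HFD replicate 4, all lay below the lowest control. The change was -0.67 ± 0.10 (SE, adjusted p = 6.35e-05), and -0.78 ± 0.07 without that library (adjusted p = 4.51e-08).

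The balance of the incretin receptors also differed in Tfam KO islets. The log2 ratio of Glp1r to Gipr TPM was 2.63 ± 0.19 in the 6 KO libraries (2.36 to 2.90) and 1.84 ± 0.23 in the 8 controls (1.52 to 2.19), with no overlap. The difference of 0.79 gave an exact permutation p of 3.33e-04, the smallest the design allows, and an adjusted p of 0.00300. The ratio was 2.59 ± 0.24 against 1.90 ± 0.25 in females and 2.71 ± 0.01 against 1.73 ± 0.18 in males. In the Clec16a experiment it was 0.97 ± 0.48 in libraries labelled KO against 0.60 ± 0.16 on RFD (n = 4 and 4, exact permutation p = 0.171) and 1.37 ± 0.38 against 0.88 ± 0.24 on HFD (n = 5 and 6, exact permutation p = 0.0260, adjusted p = 0.0643). Without KO HFD replicate 4 the HFD difference went from 0.49 to 0.61, with an adjusted p of 0.0143.

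**Figure D3:**
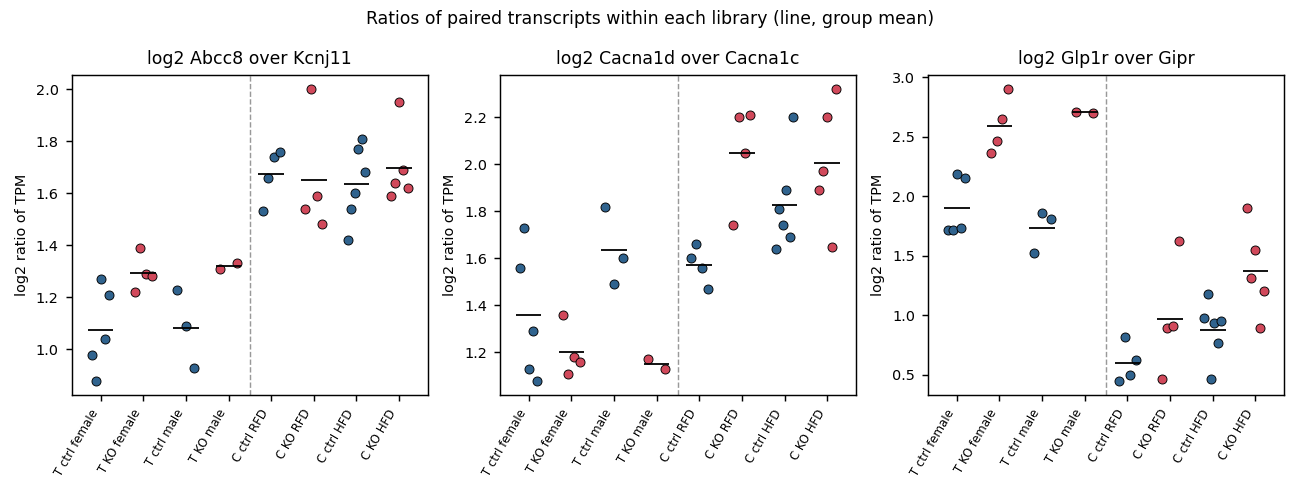
Log2 ratio of deposited TPM (vertical axes) of Abcc8 to Kcnj11, Cacna1d to Cacna1c and Glp1r to Gipr in each islet library, by group (horizontal axis; blue, control; red, labelled KO; line, group mean). The 6 Tfam KO libraries lie above the 8 Tfam controls for Glp1r over Gipr, from 2.36 to 2.90 against 1.52 to 2.19.

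Ffar1, also called GPR40, is the beta cell receptor of long-chain fatty acids (chr7:30857390-30861564, minus strand). In Tfam KO islets it ran from 117 to 188 CPM (median 143) against 159 to 253 CPM (median 191) in controls, with overlapping groups. It fell by 0.46 ± 0.10 on the log2 scale (SE), to 72.9% of control (adjusted p = 0.00356). In the Clec16a experiment, it was at 124, 92.2, 122 and 116 CPM on RFD and 106, 118, 120.1, 155 and 113 CPM on HFD. Controls had 165, 131, 194 and 198 CPM on RFD and 146 to 212 CPM (median 182) on HFD. The library at 155 CPM was KO HFD replicate 4, and the other 8 lay below all controls. The change was -0.58 ± 0.09 (SE, adjusted p = 1.26e-04), and -0.63 ± 0.09 without it (adjusted p = 9.56e-06). Over the 9 transcripts, none had Clec16a groups that did not overlap with all libraries (0.713% of all genes). Without KO HFD replicate 4, 4 did (5.93% of all genes): Trpm5, Gipr, Glp1r and Ffar1. That library was set apart by the values of these same genes, so the count without it is a description. Within each diet and lane the difference in mean log2 CPM was below 0 for all 4, from -1.09 to -0.28 for Ffar1, from -0.75 to -0.64 for Glp1r and from -1.42 to -0.99 for Gipr.

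Within single sexes and diets fewer calls were made. In Tfam KO females Gipr and Trpm5 were called (10.8% of all genes), and in males Gipr, Trpm5 and Glp1r (8.93%). The male call of Glp1r (-0.71, adjusted p = 0.0251) was lost with an exocrine term (adjusted p = 0.0609) and without control male replicate 2 (0.0974). Without KO male replicate 1 or 2, which left 1 KO male, the change was -0.78 or -0.65. The effect of the knockout did not pass a test of its difference between the sexes for any of the 9, nor for any of the 19752 genes (0%), where 1230 genes had an unadjusted p under 0.05 and DESeq2 called 34. Of the 9, Gipr alone had an unadjusted p under 0.05, with a drop larger in males than in females by 0.65 on the log2 scale (SE 0.21, adjusted p = 0.679). On RFD 5 of the 9 were called lower under Clec16a KO (Trpm5, Glp1r, Ffar1, Cacna1c and Gipr; 7.52% of all genes). That count fell to 2 without control RFD replicate 3 or 4 or KO RFD replicate 2, and to 3 without KO RFD replicate 3 or 4. Calls over all genes fell as well, from 1298 to 523, 595, 818, 838 and 741 in that order. On HFD 4 were called lower (Trpm5, Glp1r, Ffar1 and Gipr), where 9.57% of all genes were called. Without KO HFD replicate 4 there were 6, adding Cacna1c and Trpm2. Calls over all genes rose as well, from 1652 to 3369. With all libraries the HFD call of Trpm5 (-2.27, adjusted p = 0.0218) was lost when any of KO HFD replicates 1, 2, 3 or 5 was left out (adjusted p from 0.0537 to 0.0657), and without replicate 4 it was -4.12 with an adjusted p of 3.59e-09.

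Diet itself passed the test for none of the 9. HFD against RFD gave log2 differences from -0.23 to 0.10 in control islets, where 0.0406% of genes were called, and from -0.21 to 1.06 in islets labelled Clec16a KO, where 0.0116% were. None of the 9 had an unadjusted p under 0.05 in either contrast, and DESeq2 called none of them. The value of 1.06 was that of Trpm5, and it became -0.79 (adjusted p = 0.387) without KO HFD replicate 4. The interaction of Clec16a genotype and diet was likewise called for none of the 9 and none of 17254 genes (0%), with 406 genes at an unadjusted p under 0.05 and 20 called by DESeq2. For Trpm5 it was 1.17, and -0.68 without KO HFD replicate 4.

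The effects of the 2 knockouts were then compared in 1 fit over all 33 islet libraries, in which batch and experiment cannot be told apart. The Clec16a effect minus the Tfam effect was called for Cacna1c, at -0.80 ± 0.18 (log2, SE, adjusted p = 0.00178), and for Trpm2, at -0.88 ± 0.20 (adjusted p = 0.00205). Among all genes 16.3% were called, 7.57% lower and 8.71% higher. For Trpm5 the difference was -1.17 ± 0.58 (adjusted p = 0.181), and without KO HFD replicate 4 it was -2.10 ± 0.27 (adjusted p = 9.05e-07), so that this call turns on that library. Differences were 0.37 for Gipr (95% interval -0.15 to 0.90), -0.12 for Glp1r (-0.45 to 0.21) and -0.07 for Ffar1 (-0.37 to 0.23), and none of these passed the test.

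Around these 9 genes, 158 others of the same signalling steps were followed in 7 lists. In Tfam KO islets 16 of the 149 tested rose and 18 fell, and in libraries labelled Clec16a KO 34 of 143 rose and 23 fell (39 and 30 of 142 without KO HFD replicate 4). The median log2 fold change was -0.03 and 0.04, beside -0.01 and -0.00 over all genes. These counts, and those of the single lists below, stand beside 11.6% higher and 9.29% lower among all genes in the Tfam experiment, and 12.0% higher and 10.4% lower in the Clec16a experiment. Counts without KO HFD replicate 4 stand beside 14.7% lower in the Clec16a experiment, and the share higher without it is not given here. The Tfam counts are near the Tfam background, and no list was tested against the others.

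Of the other potassium channel genes, a list that includes further KATP subunits, 11 of 24 rose and 5 fell under Clec16a KO. The counts were the same without KO HFD replicate 4. The background leak channels Kcnk1 (0.68 ± 0.09, adjusted p = 4.01e-05) and Kcnk10 (2.24 ± 0.36, adjusted p = 1.59e-04) rose. Kcnk10 started from 0.0768 to 0.750 CPM in controls and reached 0.340 to 3.22 CPM. Kcnmb2, an auxiliary subunit of the BK channel (-0.59 ± 0.09), fell. In Tfam KO islets 2 of 24 rose and 4 fell. Kcnk16, the islet leak channel TALK-1, fell from 418 to 561 CPM in controls to 328 to 365 CPM (-0.44 ± 0.07, adjusted p = 3.08e-04), and Kcnh1 fell by 0.73 (adjusted p = 0.00561, and 0.0676 without the sex term), while Kcnn1, a small-conductance calcium-activated channel, rose by 0.49 and Kcnb2, a delayed rectifier, by 0.62.

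The remaining subunits of voltage-gated calcium channels mostly passed no test, with 0 of 14 called in Tfam KO islets and 1 of 14 in libraries labelled Clec16a KO. That one, Cacna2d1, an auxiliary subunit, fell by 0.43 ± 0.13 (adjusted p = 0.0185; 0.0672 under total counts). Without KO HFD replicate 4 the list had 1 higher and 2 lower. Of sodium and anion channels, 4 of 17 rose in Tfam KO islets, among them Lrrc8d, a subunit of the volume-regulated anion channel (0.34 ± 0.06), and Clcn3 (0.29 ± 0.06). In libraries labelled Clec16a KO 2 of 14 rose, the sodium channel Scn3a (0.46 ± 0.13; adjusted p = 0.0502 with an exocrine term) and Lrrc8d (0.22 ± 0.08, adjusted p = 0.0494). The call of Lrrc8d was at the threshold: it was lost with DESeq2's size factors, without a filter, with an exocrine term or a replicate block, and when any of 14 of the 19 libraries was left out, all but control HFD replicate 2, control RFD replicates 3 and 4, KO HFD replicate 4 and KO RFD replicate 4 (adjusted p from 0.0507 to 0.125 over these).

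The list of other TRP and calcium release channels also holds genes of store-operated calcium entry and mechanosensitive channels. Of its genes, 3 of 21 rose and 1 fell in Tfam KO islets. Itpr2, an IP3 receptor, rose by 0.90 ± 0.10 (adjusted p = 1.37e-05) and Tmem63b by 0.20, while Trpm3 fell by 0.45 ± 0.10 (adjusted p = 0.00421). That call of Trpm3 was lost under total counts (-0.24, adjusted p = 0.120) and without the sex term (adjusted p = 0.0512). Under the Clec16a KO label, 6 of 20 rose and 3 fell, and 6 fell without KO HFD replicate 4. Trpm3 rose there (0.44 ± 0.09, adjusted p = 0.00109), as did the mechanosensitive channel Piezo1 (0.59 ± 0.13). Itpr3, another IP3 receptor (-0.49 ± 0.10), and Mcoln1, a lysosomal channel (-0.42 ± 0.09), fell.

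The next list was drawn up as other receptors that raise secretion, and its members split in both directions. How each of them acts on secretion was not tested, and placing Ffar2 and Ffar3 in it was a choice of the list. In Tfam KO islets 3 of 21 rose and 6 fell. Vipr2, a receptor of the peptide VIP, rose from 1.42 to 2.59 CPM in controls to 6.52 to 11 CPM (2.25 ± 0.14, adjusted p = 1.12e-08), and Gcgr, the glucagon receptor, rose by 0.86 ± 0.10. Prlr, the prolactin receptor, fell by 0.81 ± 0.11 and Gpr119, a lipid receptor, by 0.67 ± 0.12. For the Clec16a experiment, 2 of 20 rose, Ffar2 (0.48 ± 0.10), a receptor of short-chain fatty acids, and Oxtr, the oxytocin receptor (0.41 ± 0.13), and 4 fell, or 7 without KO HFD replicate 4. They include Ffar3, the other short-chain fatty acid receptor (-0.80 ± 0.14), and Gpr142 (-0.46 ± 0.11). The call of Oxtr was lost when any of 10 libraries was left out (adjusted p from 0.0504 to 0.0701): control HFD replicate 6, control RFD replicates 1 to 4, KO HFD replicates 2 and 3, and KO RFD replicates 2 to 4. With the replicate number as a block its adjusted p was 0.0879.

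A further list was drawn up as receptors that lower secretion, and how each of them acts on secretion was not tested. Among them, Ptger3, the prostaglandin E receptor EP3, rose under both knockouts, by 2.69 ± 0.28 in Tfam KO islets (21.1 to 42.7 CPM against 2.06 to 10, adjusted p = 4.93e-06) and by 1.36 ± 0.30 in libraries labelled Clec16a KO (3.48 to 26.5 against 1.84 to 5.61 CPM, adjusted p = 0.00238). Adora1, the adenosine receptor A1, fell under both, by 0.34 ± 0.07 and 1.19 ± 0.14, but under total counts its Tfam call was lost (-0.13, adjusted p = 0.190). In all, 2 of 17 rose and 3 fell in the Tfam experiment, P2ry14 (0.76) and Galr1, a galanin receptor (-0.69), among them. The call of P2ry14 was lost when any of 12 of the 14 libraries was left out (adjusted p from 0.0514 to 0.117), all but control female replicate 3 and KO female replicate 1. In the Clec16a experiment 4 of 16 rose, with Gprc5b at 0.63, and 4 fell, with Sstr3, a somatostatin receptor, at -0.54, and the counts were the same without KO HFD replicate 4. Of 35 genes of cAMP and phospholipase C signalling, 2 rose and 4 fell in Tfam KO islets. Gnai2, an inhibitory G-protein subunit, rose by 0.91 ± 0.06 (adjusted p = 1.39e-08) and Rgs16 by 0.80 (adjusted p = 0.0181, and 0.0591 with a replicate block), and Rapgef4, the cAMP sensor Epac2, fell by 0.55 ± 0.05 and Gnaz by 0.41. In libraries labelled Clec16a KO 9 rose and 6 fell (11 and 6 without KO HFD replicate 4). Adcy3, an adenylyl cyclase (0.57 ± 0.11), and Prkar1a, a regulatory subunit of protein kinase A (0.36 ± 0.07), rose, and the phosphodiesterase Pde1c (-1.28 ± 0.22) and Plcb4 (-0.60 ± 0.12) fell.

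**Figure D4:**
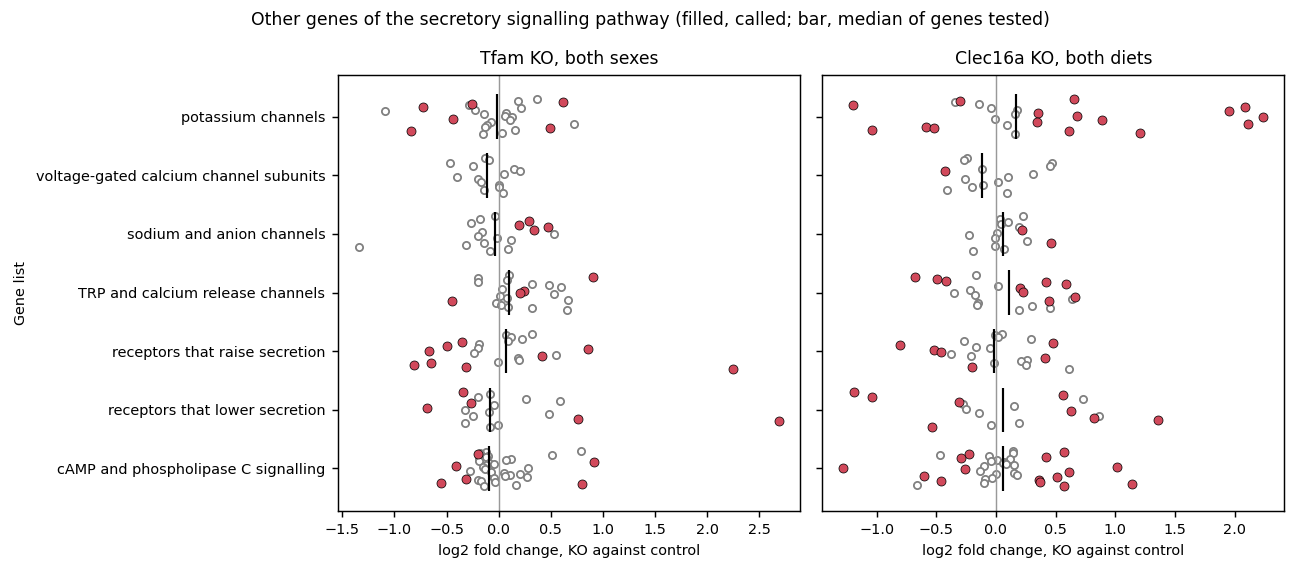
Log2 fold change, knockout against control (horizontal axes), of the tested genes of 7 pathway lists (vertical axis) in the Tfam and Clec16a experiments. Filled points passed an adjusted p of 0.05 and bars are list medians; the potassium channels of the Clec16a panel show 11 filled points above 0 and 5 below it.

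By Pearson correlation of log2 CPM over the 14 Tfam and the 19 Clec16a islet libraries, each ranked by the lower of the 2 values among 16899 genes tested in both, Slc2a2 was the gene most like Trpm5 (r = 0.94 and 0.97). Slc2a2 encodes the beta cell glucose transporter GLUT2. It ran from 315 to 694 CPM in Tfam KO islets against 704 to 1099 in controls, and from 170.0 to 692 CPM in libraries labelled Clec16a KO against 564 to 928. The value of 692 CPM was KO HFD replicate 4. Next to Trpm5 came Frzb (0.94 and 0.95) and Dnajc24 (0.94 and 0.95). Slc2a2 was also among the 3 genes most like Gipr (0.93 and 0.94), after Kif12 (0.96 and 0.95) and Iffo1 (0.94 and 0.96). Carmil3 was shared by Glp1r (0.92 and 0.89) and Ffar1 (0.83 and 0.90), and Ffar1 was most like Ffar3 (0.86 and 0.86), a member of its own receptor family. Slc30a8, the zinc transporter of insulin granules, was among the 3 genes most like Glp1r (0.90 and 0.88). Cacna1d was most like Asxl2 (0.88 and 0.86) and Trpm2 most like Pbld2 (0.79 and 0.84). The gene most like Abcc8 was Mink1 (0.85 and 0.81), and the gene most like Kcnj11 was Dmwd (0.87 and 0.78). These libraries share the knockout contrast, depth and cell makeup, and the values are a description.

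**Figure D5:**
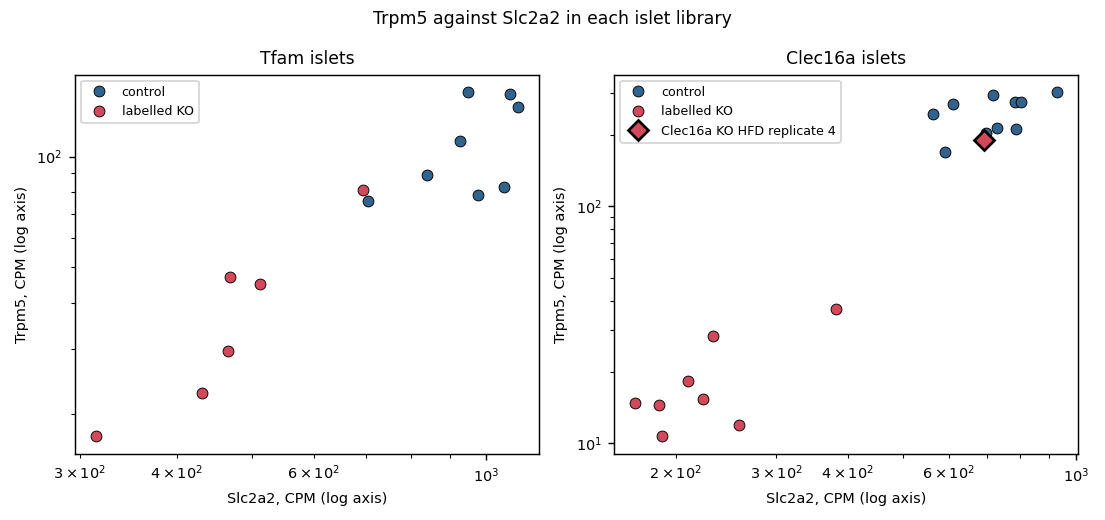
Trpm5 (vertical log axes, CPM) against Slc2a2 (horizontal log axes, CPM) in the 14 Tfam (left) and 19 Clec16a (right) islet libraries. Controls are blue and libraries labelled KO red; the outlined diamond, Clec16a KO HFD replicate 4, lies at 692 CPM of Slc2a2 and 191 CPM of Trpm5, among the controls.

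In the 13 liver libraries of the series, with CPM on raw library totals, 7 of the 9 transcripts had group means under 1 CPM in each of the 3 groups (control, Mfn DKO and Tfam KO). Gipr reached at most 0.0477 CPM and Abcc8 at most 0.167 CPM in any liver. Trpm2 was at 1.57 ± 0.606 TPM (SD, n = 6) in control livers, beside 2.33 ± 0.345 TPM in Tfam control islets, and Cacna1d at 0.561 ± 0.0620 TPM.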

How the data were processed

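RNA of 33 islet and 13 liver libraries was sequenced as paired ends, and each deposited file holds 1 library. Per the file headers, the authors gave raw counts and TPM for each of 55487 genes. The submitters' processing notes name FastQC, MultiQC, STAR 2.6.1b, RSEM 1.3.1, featureCounts, DESeq2 and the build GRCm38 without their roles, and the annotation release is not given in the sources used here. Gene positions come from GENCODE M21, in which 55141 of the gene IDs were found, and promoters from RefSeq for GRCm38.p6. Whether counting used strand is not given in the sources used here, so reads of antisense neighbours cannot be told apart. Total counts per library ran from 16235173 to 83342809 over all islets, and the errors given hold both counting error and the spread between libraries.

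The deposited counts were tested with edgeR 4.0.16 and limma 3.58.1 in R 4.3.3: TMM scaling, filterByExpr and a quasi-likelihood test, with p-values adjusted by Benjamini-Hochberg across the genes that passed the filter. A gene was called where its adjusted p did not exceed 0.05. The Tfam fit had sex, and the Clec16a fit over both diets had diet, as an additive term. Single sexes, diets and interactions came from fits with 1 mean per group, and the difference between knockouts from a fit over all 33 islet libraries. Islet CPM values were computed from the deposited counts on TMM-scaled library sizes, and percents of control are fitted fold changes. Ratios used deposited TPM and two-sided exact permutation tests, in which libraries were permuted without regard to sex or lane. Tables were made with Python 3.11.15, pandas 2.3.3 and numpy 2.4.6. The fitting code was tested on simulated data.

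The 9 genes, the marker and pathway lists and the tests were chosen with earlier results of these data known. Genes named besides the 9 are Tfam, Clec16a, at most the 2 called genes with the smallest adjusted p per list, direction and experiment, and for each of the 9 the 3 genes with the most similar profiles, of which the leading ones are given. A gene that this rule names is not reported here. The labels give no lane, and lanes were taken from file names. Replicate numbers did not pair the libraries: the median correlation of same-numbered libraries was 0.0653 in the Tfam and -0.0163 in the Clec16a experiment. Alternatives were DESeq2 1.42.0 (Wald test, and its size factors in edgeR), other filters on low counts, a lane, exocrine or replicate term, only the compared groups, each library left out, and scaling by total counts, which was chosen after seeing the data. Liver CPM used raw library totals, without TMM.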

Additional observations from a re-analysis of the deposited data

Results flagged for a closer look

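Each gene was tested in each islet group of at least 4 libraries for a library far from the rest. Such a library was found in 5 of these 54 sets. Chance alone gives about 1 in 20 where sets are independent. These sets are not, because the genes share libraries and 4 of the 5 point to the same library. The 5 sets therefore cannot be compared with that rate. In libraries labelled Clec16a KO on HFD, replicate 4 stood above the other 4 for Trpm5 (191 CPM), Glp1r (906 CPM), Gipr (293 CPM) and Ffar1 (155 CPM). The same library had the highest summed beta cell markers of the libraries labelled Clec16a KO, at 250943 CPM against 139221 to 230569, and the lowest endothelial sum, at 395 against 613 to 725 CPM. Not all markers placed it with the controls. Its Schwann cell and neuron sum was 69.5 CPM, against 46.3 to 66.8 in the other libraries labelled KO and 83.2 to 139.6 in controls. Its delta (3975 CPM) and duct (227 CPM) sums lay below those of the other libraries labelled KO and of all controls (4142 and 258 at lowest). Among Clec16a controls on HFD, replicate 6 stood below the other 5 for Cacna1c, at 33.6 CPM.

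The effects of both knockouts differed by a test of the difference itself for Cacna1c (Clec16a effect minus Tfam effect -0.80, log2) and Trpm2 (-0.88).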

How the results depend on the processing

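Trpm5 and Gipr were called lower in Tfam KO islets under all 22 alternatives (-1.77 to -1.34 and -1.37 to -1.06), and the 6 calls over both Clec16a diets held in all alternatives that gave an adjusted p. DESeq2's test gave none for Trpm5 there. The differences between knockouts of Cacna1c and Trpm2 kept their calls in all 40. Small groups limit the comparisons within a sex or diet: leaving out 1 library gave 2 to 5 of the 9 called on RFD (5 with all), 3 to 6 on HFD (4) and 2 to 4 in males (3). Calls over all genes then ran from 523 to 2015 on RFD, 786 to 3369 on HFD and 578 to 2541 in males. A lane term left 3 called on RFD, and fitting only the compared groups gave 5 in males. DESeq2's test called 34 genes for the sex interaction and 53, 41 and 20 for diet in controls, diet in KO and their interaction. Scaling by total counts called 6825 genes in the Tfam experiment against 4119. With the replicate number as a block, the counts of the 9 called were 6 in the Tfam experiment, 6 over both diets, 4 on RFD (where Gipr at -0.97 lost its call, adjusted p = 0.0884), 4 on HFD, and 3 in females (main 2, adding Cacna1c at 0.55). Same-numbered libraries did not pair: 5 of 14 and 1 of 19 correlated best with their own number.

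Changes of sign touched only values near 0, apart from Trpm5 by diet. Total counts gave Kcnj11 0.08 in Tfam KO islets, 0.05 over both diets and -0.01 for the difference between knockouts, and Abcc8 0.07 over both diets. On RFD, Abcc8 was 0.00 with DESeq2's size factors and with its test, 0.02 with a lane term and 0.01 with only the compared groups, and Kcnj11 was -0.03 with a lane term. Cacna1d in males was 0.00 with an exocrine term. Leaving out each library gave Abcc8 -0.02 to 0.07 in males, -0.04 to 0.02 over both diets, -0.08 to 0.06 on RFD and -0.05 to 0.03 on HFD, and Kcnj11 -0.07 to 0.06 on RFD. It gave Trpm5 -0.79 to 1.34 for HFD against RFD in KO islets and -0.68 to 1.44 for the interaction, both lowest without KO HFD replicate 4. For the log2 ratios it gave Abcc8 over Kcnj11 0.20 to 0.25 in Tfam islets, -0.13 to 0.04 on RFD and -0.00 to 0.09 on HFD, Cacna1d over Cacna1c -0.33 to -0.23 in Tfam islets, and Glp1r over Gipr 0.36 to 0.61 on HFD. Within lane 8, which holds 1 RFD library labelled KO, Abcc8 over Kcnj11 differed by 0.25 and Cacna1d over Cacna1c by 0.69, and within males Cacna1d over Cacna1c differed by -0.49. The cause of these changes was not tested.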
